A study of Mus musculus with 4 samples.

Results

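The genes described here are the DNA replication and G1/S genes of Py-4-1, a cell line from a mouse hemangioendothelioma, which is a tumour of endothelial cells. Of 54 listed genes, 52 had a probe set that the platform annotation assigns to that gene alone, among 12393 such genes on the array, and Gins2 and Chaf1a had none. Each gene is represented by its brightest probe set, judged by the mean log2 value over the 4 arrays. The study transfected Py-4-1 cells with a pcDNA plasmid, as a control, or with a pcDNA/Prox1 plasmid. Prox1, a homeobox transcription factor, directs endothelial cells to the lymphatic fate, and the title of the series concerns invasion of kaposiform hemangioendothelioma, a vascular tumour. Each group held 2 stable clones, each measured on 1 Affymetrix array from a nearly confluent dish, so clone and array cannot be told apart. The control clones share with the Prox1 clones the parental line and the pcDNA backbone, and no source used here names the promoter that drives Prox1.

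DNA replication is prepared in G1, when the origin recognition complex, CDC6 and CDT1 load the MCM2 to MCM7 helicase onto DNA. At the G1/S border cyclin D and cyclin E kinases phosphorylate the retinoblastoma protein, which releases E2F factors, and these switch on many replication genes. The kinase CDC7 with DBF4 then activates the helicase, and polymerases, the PCNA clamp and its loader, ligase and nucleotide-making enzymes copy the DNA. These transcripts mark proliferating cells, and endothelial tumour lines grown in culture are such cells.

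The brightest Bacillus control probe set, which matches no mouse gene, read from 45.3 to 101 across the arrays and served as a background level. The Prox1 probe set gave 52.1 and 60.5 for the controls against 62.4 and 44.3 for the Prox1 clones. It exceeded that level in 1 array, control clone 1, where the level was lowest, and in neither Prox1 clone. It thus read at background in most arrays and does not check the labels, and whether it lies in the transfected cDNA is not given in the sources used here. The groups below are named by their labels. Of 10 endothelial markers 9 exceeded the background level in every array. Claudin 5 exceeded it in 1 array, control clone 1. Of 20 markers of leukocytes, epithelium, fibroblasts, mural cells, muscle and neurons 6 did so, namely Cd68 (708 to 969.6, the brightest), Cd14, Krt8, Acta2, Cspg4 and Des, while Ptprc, Epcam and Dcn did not in any array. The part of other cell types in the results was not tested. Of the 52 replication and G1/S genes 50 exceeded the background level in every array. The exceptions were Tyms, in 1 array, control clone 1, and Cdk6, in 2 arrays, those of the control clones.

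As a group, the replication and G1/S genes were centred on no difference between the groups of clones. The median log2 change, Prox1 clones minus control clones on the scale of log2(intensity + 47), was -0.029 over the 52 genes, beside -0.0020 over all 12393 genes. A positive change was seen in 25 genes and a negative one in 27, beside 49.6% positive over all genes. The changes ran from -0.70 for Cdc6, the helicase loading factor, to 1.02 for Rb1, which encodes the retinoblastoma protein. None passed the test: 49 genes lay above the intensity filter, and 0 of these reached an adjusted p under 0.05 (limma, Benjamini-Hochberg over 11656 probe sets), where 0.103% of everything tested did. An unadjusted p under 0.05 was reached by 2 higher genes, Rb1 and Pola1, and 2 lower genes, Cdc6 and Fen1, beside 14.5% of all probe sets tested. Orc1, Tyms and Cdk6 lay below the filter and were not tested.

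The precision of the comparison can be read from the 95% intervals of the fit, which are per gene and not adjusted. For 44 of the 49 genes tested the interval of the log2 change lay between -1 and 1, so that it excluded a 2-fold difference in either direction, as it did for 84.8% of all genes tested. The interval reached past 1 or -1 for Rb1, Cdc6, Pola1, Ccne1 and Ccne2. The standard errors of the log2 changes ran from 0.16 for Rpa1 to 0.36 for Ccne2. Both Prox1 clones lay above both control clones in 8 of the 52 genes and below both in 12, beside 20.2% and 21.3% of all genes. The smallest p that an exact permutation test could reach with this design is 0.333, and the spread between clones of 1 group may hold culture and array handling as well as clone. In whole-culture RNA, fewer cells in S phase and less transcript per cell cannot be told apart.

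**Figure D1:**
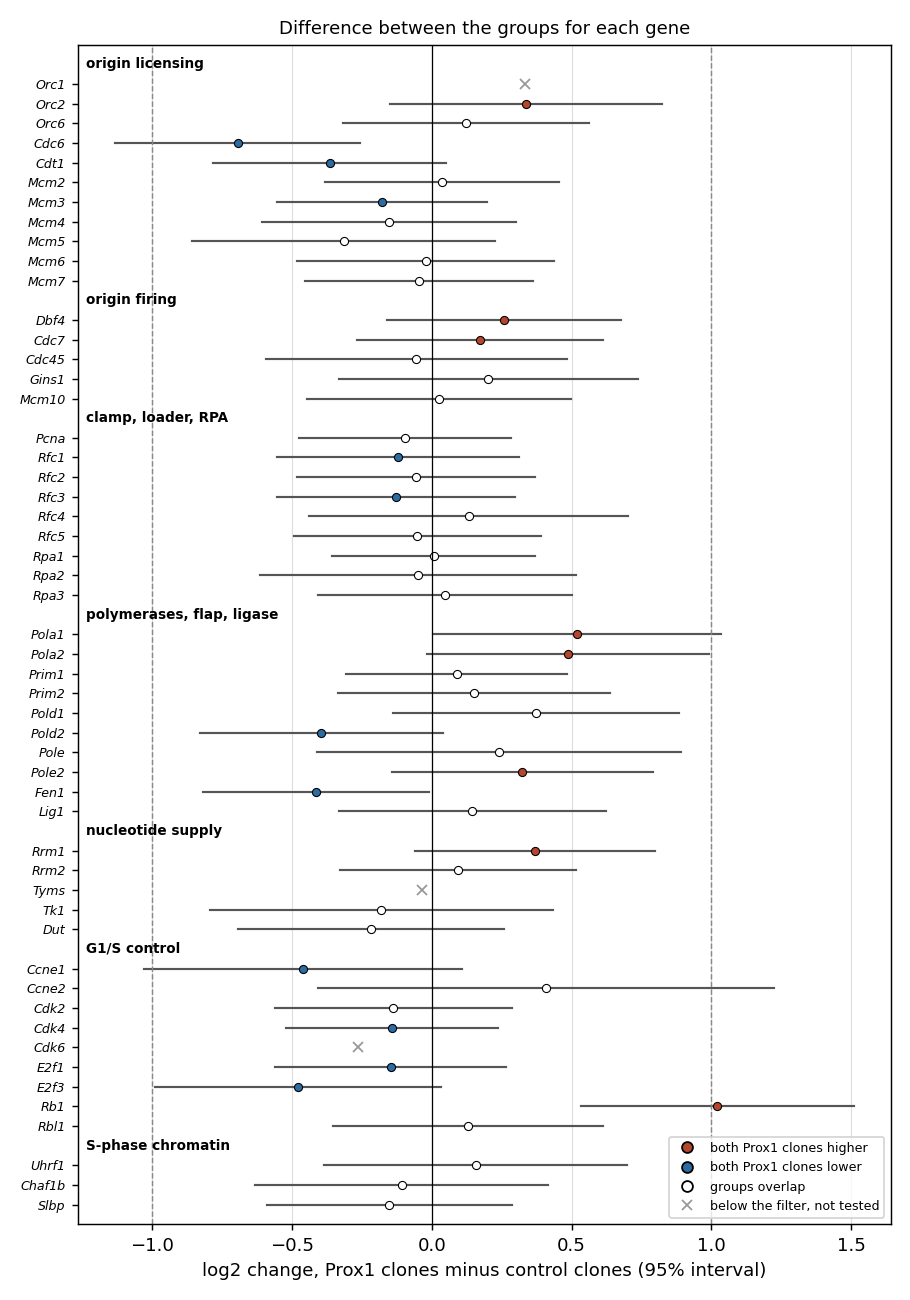
Log2 change of each gene, Prox1 clones minus control clones, with the 95% interval of the limma fit, by functional class. Filled points mark genes whose groups do not overlap, and crosses mark the 3 genes below the intensity filter (not tested). The dashed lines at -1 and 1 mark a 2-fold difference on the log2 scale used. Most intervals straddle 0, and Rb1 (1.02) and Cdc6 (-0.70) lie farthest out.

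Rb1 showed the largest difference of the set. This gene encodes the protein that holds E2F factors inactive in G1. Its intensity was 239 in control clone 1, 279 in control clone 2, 658 in Prox1 clone 1 and 498 in Prox1 clone 2, the order in which values per clone are given throughout. Both Prox1 clones were therefore well above both controls, and the gap between the groups was larger than that between the clones of either group. Group means were 259 ± 27.9 (SD, n = 2) and 578 ± 113, a fold of 2.03 on the log2 scale (log2 change 1.02 ± 0.22 SE, 95% interval 0.53 to 1.51), and the limma adjusted p was 0.128. The change ran from 0.84 without Prox1 clone 1 to 1.21 without Prox1 clone 2. Rb1 was measured by 1 probe set, so no other probe set on the array bears on it. Its relative Rbl1, which encodes p107, read 673 and 926 in the controls against 922 and 820 in the Prox1 clones, and the groups overlapped.

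Both E2F genes of the set had changes below 0. E2f3, an activating E2F factor, read 328 and 275 in the controls against 172 and 236 in the Prox1 clones. All of its Prox1 values were below all of its control values (log2 change -0.48, 95% interval -0.99 to 0.033, limma adjusted p = 0.37). E2f1, another activating E2F, read 993 and 943 in the controls against 858 and 880.4 in the Prox1 clones. The groups did not overlap, but the gap was small (-0.15, interval -0.56 to 0.27, adjusted p = 0.772). In a dimmer E2f1 probe set, with a change of -0.21, the groups overlapped.

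Cyclin E, the partner of CDK2 at the G1/S border, is encoded by Ccne1 and Ccne2, and the control clones disagreed on both. Ccne1 read 1090 and 651 in the controls against 639 and 563 in the Prox1 clones. The Prox1 clones were lower than either control, but control clone 2 lay close to Prox1 clone 1, so the log2 change of -0.46 (interval -1.03 to 0.11, adjusted p = 0.436) was -0.11 without control clone 1 and -0.81 without control clone 2. Ccne2 read 674 and 250.3 in the controls against 617 and 521 in the Prox1 clones. Control clone 2 alone stood low, and the log2 change of 0.41 (interval -0.41 to 1.22, adjusted p = 0.661) turned to -0.23 when that clone was left out and was 1.05 without control clone 1. Of the kinase genes, Cdk2 had a log2 change of -0.14 (interval -0.56 to 0.29) and Cdk4, the cyclin D kinase, also -0.14 (interval -0.52 to 0.24). The dim Cdk6, read at 80.2 to 134.5 across the clones, cannot be placed. Of the 9 G1/S control genes 3 had a positive change and 6 a negative one, beside 49.6% positive over all genes. The class median was -0.14.

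**Figure D2:**
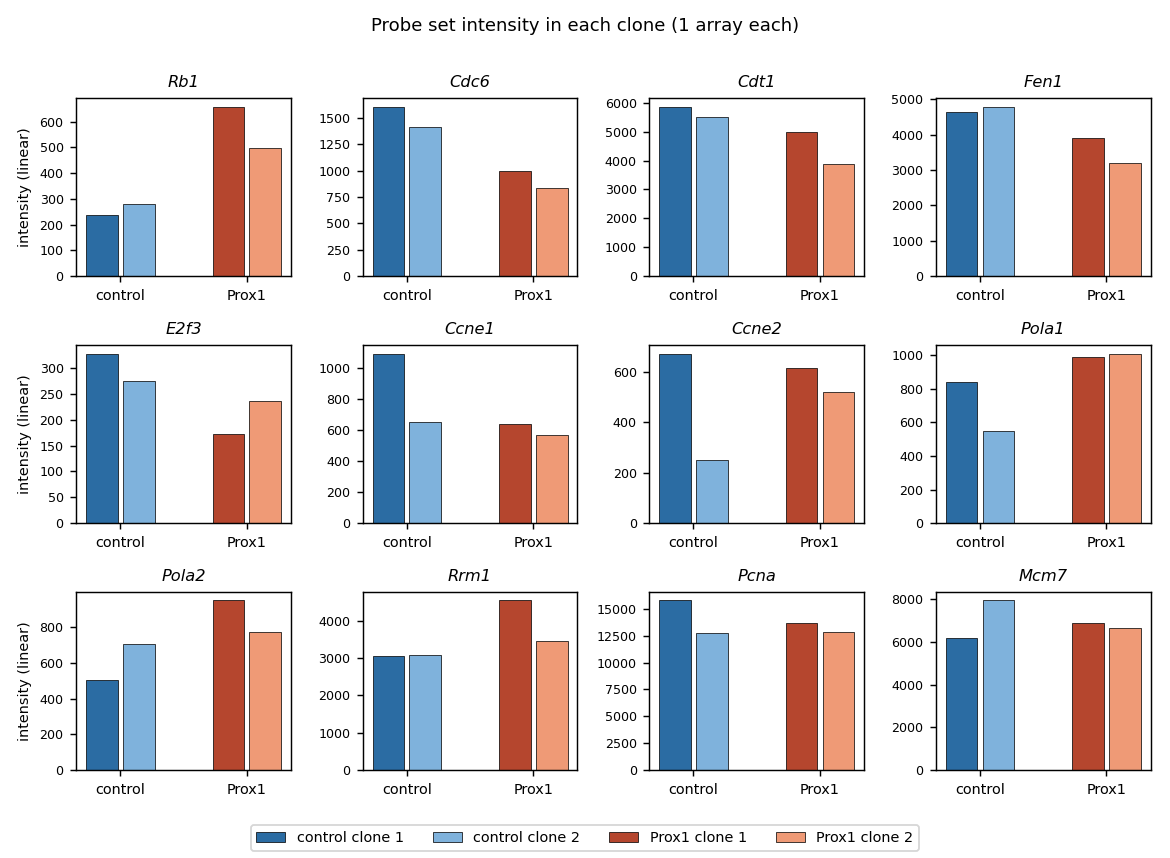
Linear probe set intensity of 12 genes in control clones 1 and 2 (blue) and Prox1 clones 1 and 2 (red), 1 bar for each array, each panel from 0 and on its own scale. Rb1 was higher and Cdc6 lower in both Prox1 clones, while Ccne1 stood high in control clone 1 alone and Ccne2 low in control clone 2 alone.

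In the origin licensing class both loading factor genes were lower in both Prox1 clones, without passing the test. Of the 6 helicase subunit genes 5 overlapped between the groups, beside 20.2% of all genes higher and 21.3% lower without overlap. Cdc6 read 1605 and 1412 in the controls against 994 and 836 in the Prox1 clones. The groups did not overlap, at 1508 ± 136 (SD, n = 2) against 915 ± 112 (fold 0.618, log2 change -0.70 ± 0.19 SE, 95% interval -1.13 to -0.26, limma adjusted p = 0.185). Leaving out a clone moved the change only between -0.81 and -0.58. Cdt1, the other loading factor, read 5867 and 5515 in the controls against 4989 and 3889 in the Prox1 clones. Here too both Prox1 clones were lower, with Prox1 clone 2 the lowest (-0.37, interval -0.78 to 0.052, adjusted p = 0.403), and the change was -0.19 without Prox1 clone 2 and -0.54 without Prox1 clone 1. A second Cdt1 probe set had a change of -0.43 and also did not overlap, and the remaining one, at 3.02 to 5.21 in the 4 clones, was below the filter.

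The MCM2 to MCM7 subunits form 1 ring, and with the brightest probe set of each gene none of their changes exceeded 0.32 in size. Mcm2 read 2706 and 3358 in the controls against 3009 and 3185 in the Prox1 clones, a change of 0.038. The Prox1 values lay between the controls. Mcm7 read 6174 and 7948 against 6905 and 6662 (-0.046), and Mcm6 read 2332 and 2744 against 2873 and 2157 (-0.022). For both, too, the groups overlapped, and the signs of Mcm2, Mcm6 and Mcm7 changed with the scaling of the arrays. Mcm4 had a change of -0.15 and Mcm5, which read 2212 and 3193 against 2515 and 1798, of -0.32 (interval -0.86 to 0.23). Mcm3 was the subunit whose groups did not overlap, with 4430 and 4575 against 4073 and 3882 (-0.18, interval -0.55 to 0.20, adjusted p = 0.683). All 5 of its probe sets were tested and each was lower in both Prox1 clones, with changes from -0.42 to -0.18. Of the origin recognition subunit genes, Orc2 stood at 0.34 (682 and 504 against 819 and 694.5), the untested Orc1 at 0.33 and Orc6 at 0.12, which turned to -0.029 without Prox1 clone 1. In a wider list described further on, Orc3 stood at 0.56, Orc4 at 0.14 and Orc5 at -0.11.

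**Figure D3:**
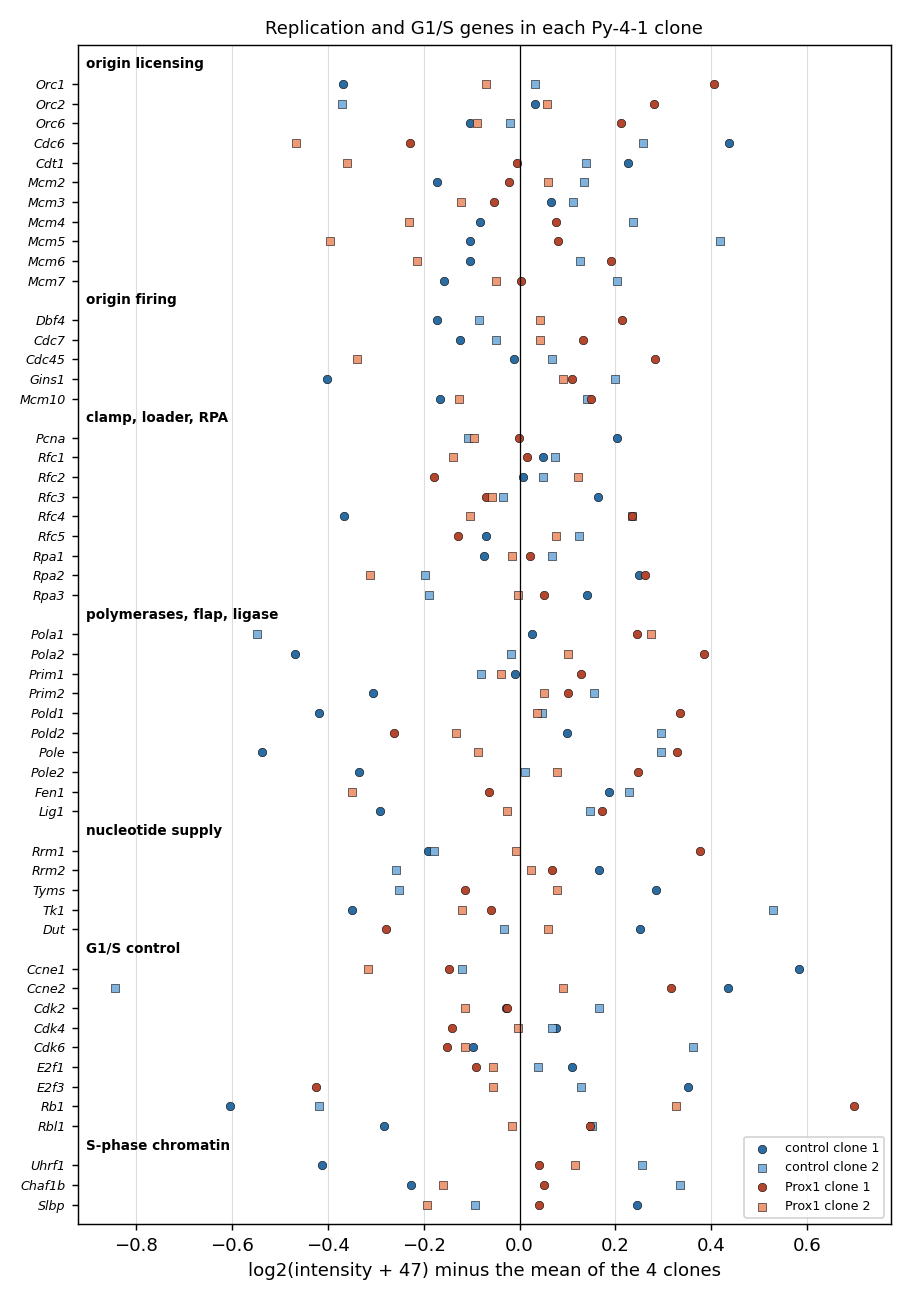
Each gene in each of the 4 clones, as log2(intensity + 47) minus the mean of the 4 clones, by functional class. Control clones are blue and Prox1 clones red, and circles and squares are clones 1 and 2. For most genes red and blue points are mixed, while for Rb1 both red points lie to the right and for Cdc6 and Cdt1 both lie to the left.

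Many replication genes carry E2F sites close to their start, so the promoters of the set were searched for 4 octamers of the E2F type, TTTCCCGC, TTTCGCGC, TTTGCCGC and TTTGGCGC, on both strands, in RefSeq windows of GRCm38.p6 from 250 bases before the start to 50 after it. At least 1 match was held by 16 of the 46 genes with a promoter entry (34.8%), beside 2.6% of all genes with an entry and 2.26% of all promoter windows of the same length. Ccne2, Gins1, Gins2, Mcm4, Pole, Prim2, Rb1 and Rfc2 had no entry. The stretches printed here come from genes that differed in opposite directions, from the helicase and from the p107 gene, and show what their upstream matches look like. Capitals mark the octamer matches, and letters run 5′ to 3′ on the strand of the gene. In Mcm5 and Mcm6 a pair of octamers on opposite strands overlaps, so that the capitals run over 12 bases.
Cdc6 (chr11:98907987-98908046, + strand): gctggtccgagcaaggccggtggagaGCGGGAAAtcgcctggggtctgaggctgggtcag
E2f3 (chr13:29986064-29986100, - strand): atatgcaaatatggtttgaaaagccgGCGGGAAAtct
Pola1 (chrX:93632260-93632319, - strand): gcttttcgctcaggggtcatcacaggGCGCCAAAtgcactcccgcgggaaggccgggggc
Mcm5 (chr8:75109330-75109389, + strand): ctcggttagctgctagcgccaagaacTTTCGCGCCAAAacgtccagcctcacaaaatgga
Mcm6 (chr1:128359782-128359841, - strand): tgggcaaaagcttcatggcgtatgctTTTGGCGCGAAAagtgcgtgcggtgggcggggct
Rbl1 (chr2:157204535-157204578, - strand): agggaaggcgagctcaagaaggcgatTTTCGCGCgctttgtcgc

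Genes with and without such a match had median changes close to each other. Over the 16 with a match the median log2 change was -0.034, with 7 positive and 9 negative, and over the 29 without a match that had a probe set it was -0.051, with 13 positive and 16 negative. Cdc6, lowest of the set, and Pola1, second to Rb1 at the upper end, carry the match at the same distance, with its first base 138 bases before the start. A match of these letters is a description of the window and does not show that a factor binds there.

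The 5 measured genes that act when origins fire had changes from -0.056 to 0.26. Dbf4, the activator of the CDC7 kinase, read 1095 and 1167 in the controls against 1445 and 1279 in the Prox1 clones. Both Prox1 values were higher than both controls (0.26, interval -0.16 to 0.68, limma adjusted p = 0.575). Cdc7 itself was arranged likewise, at 339.6 and 360.1 against 415 and 387 (0.17, adjusted p = 0.743). Gins1, a subunit of the helicase activator GINS, read 340.5 and 541 against 505 and 498, which placed both Prox1 clones between the controls (0.20, adjusted p = 0.757). Cdc45 and Mcm10 stood at -0.056 and 0.024.

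The clamp, its loader and the single-strand binding proteins had the narrowest range of the 7 classes, with 9 changes between -0.13 and 0.13. Pcna, the sliding clamp, read 15780 and 12719 in the controls against 13695 and 12838 in the Prox1 clones. The Prox1 values lay within the range of the controls (-0.095, interval -0.47 to 0.28). Rpa1, the large subunit of replication protein A, read 7593 and 8373 against 8114 and 7905 (0.0064, interval -0.36 to 0.37). Of the loader subunits, Rfc3 read 1069 and 926 against 902 and 910.2 (-0.13), without overlap, and Rfc4 read 284 and 454.5 against 454.6 and 350 (0.13), with control clone 1 the lowest and Prox1 clone 2 next to it. The second tested probe sets of Rfc3 (0.016) and Rfc4 (-0.17) had the opposite sign, so these genes have no direction here. Over the set, 22 genes had several tested probe sets, and the sign was the same across them in 15 and mixed in 7, namely Dut, Mcm4, Mcm7, Orc2, Rfc1, Rfc3 and Rfc4.

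Of the 10 polymerase, primase, flap nuclease and ligase genes 8 had a positive change, beside 49.6% of all genes. The 2 others, Pold2 and Fen1, had a negative one, and the class median was 0.20. This median depended on the control clones. It was 0.025 without control clone 1, where Prim2, Pole and Lig1 turned negative, and 0.37 without control clone 2. Pola1, the catalytic subunit of polymerase alpha, which starts each new strand with primase, read 844 and 552 in the controls against 989 and 1011 in the Prox1 clones. The Prox1 clones agreed closely and lay above both controls, which differed from each other by more than the Prox1 clones did (0.52 ± 0.23 SE, interval 0.0043 to 1.04, limma adjusted p = 0.341). Without control clone 1 the change was 0.81 and without control clone 2 it was 0.23. Pola2, its accessory subunit, read 504 and 707 against 949.6 and 772 (0.49, interval -0.019 to 0.99, adjusted p = 0.36), again with no overlap. Pole2, a subunit of the leading-strand polymerase epsilon, had 543 and 703 against 836 and 738 (0.32, adjusted p = 0.518), and the catalytic gene Pole stood at 0.24, with overlap. In polymerase delta the catalytic gene Pold1 stood at 0.37 and the accessory gene Pold2 at -0.40, the latter with 863 and 996 against 661 and 728 (adjusted p = 0.386).

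Primase had 1 gene with discordant probe sets. Prim2, the large primase subunit, read 525 and 741.5 against 712 and 686 with the probe set chosen by the rule (0.15, interval -0.34 to 0.64). Its dimmer probe set read 312 and 301 in the controls against 619 and 653 in the Prox1 clones. That difference was large against the spread of either group (0.95 ± 0.19 SE, limma adjusted p = 0.128), and since the probe sets disagree in size the gene's change is not settled. Prim1, the catalytic primase subunit, stood at 0.090.

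Fen1, the nuclease that trims Okazaki fragments, was lower in both Prox1 clones. It read 4653 and 4795 in the controls against 3905 and 3196 in the Prox1 clones. The control clones agreed closely, and the change was -0.41 ± 0.18 SE (interval -0.82 to -0.0096, limma adjusted p = 0.332). A second probe set of Fen1 stood at -0.29, also without overlap. Lig1, the ligase that seals the fragments, gave 0.15, and its groups overlapped.

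Enzymes that supply nucleotides varied by gene. Rrm1, the large subunit of ribonucleotide reductase, read 3050 and 3073 in the controls against 4540 and 3467 in the Prox1 clones. Both Prox1 clones were higher, but they differed from each other by more than the nearer one did from the controls (0.37, interval -0.062 to 0.80, limma adjusted p = 0.413). Rrm2, the small subunit, read 8273 and 6163 against 7731 and 7502, with the Prox1 values between the controls (0.092). Tk1, thymidine kinase, read 1609 and 2995 against 1976 and 1894, so that control clone 2 alone stood high (-0.18, interval -0.79 to 0.43). Dut, the dUTPase, read 1077 and 876 against 732 and 937 (-0.22), with overlap, and its second probe set gave 0.014. The 3 probe sets of Tyms, thymidylate synthase, all lay below the filter, the brightest at 49.5 to 92.9, so its level could not be read.

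All 3 measured genes of S-phase chromatin overlapped between the groups, beside 20.2% of all genes higher and 21.3% lower without overlap. Uhrf1, which guides maintenance methylation of DNA, read 860.0 and 1393 in the controls against 1195 and 1261 in the Prox1 clones (0.16, limma adjusted p = 0.818). Slbp, the histone mRNA binding protein, read 4050 and 3194 against 3510 and 2976 (-0.15, adjusted p = 0.779). Chaf1b, a subunit of the CAF-1 histone chaperone, gave -0.11.

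Clones of the same group differed from each other in these genes. The median absolute difference was 0.32 between the control clones and 0.19 between the Prox1 clones, against a median absolute change of 0.15 between the groups, and in 12 of the 52 genes the change between groups exceeded both. Over all genes tested the corresponding medians were 0.26, 0.16 and 0.21, and the change exceeded both differences in 33.4%. Prox1 clone 2 lay below Prox1 clone 1 in 39 of the 52 genes, with a median difference of -0.16, where it did so in 53.2% of all genes tested. In the licensing class this held for 10 of 11 genes. The count was 39 under quantile normalization, beside 51.2% of all genes tested, and 37 under median centring of the arrays, beside 45.6%. Control clone 2 lay above control clone 1 in 34 genes, with a median of 0.086, beside 56.8% of all genes tested. Under median centring it did so in 25 genes, beside 46.7% of all genes tested.

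The control clones stood much farther apart in mitosis genes than in replication genes. All 11 of the mitosis genes measured were higher in control clone 2, with a median difference of 1.12, and this held for all 11 under both other scalings. Plk1, the mitotic kinase, read 294 in control clone 1 and 1120 in control clone 2, with 1067 and 1076 in the Prox1 clones. For this gene control clone 1 stood apart and the other 3 clones read close together. Kif11, a spindle motor, read 221 and 444 against 627 and 618.5, so that both Prox1 clones also lay above control clone 2. Plk1 and Kif11 were chosen after their values were seen. Between the groups the median change of the 11 mitosis genes was 0.63, and 9 were positive. Of these, 4 (Bub1, Cdc20, Kif11 and Mki67) were higher without overlap, beside 20.2% of all genes. Each of the 4 had an unadjusted p under 0.05 (limma). Over all probe sets tested 8.65% were higher at that level. After adjustment 0 of the 11 passed. Without control clone 1 the median was -0.062, with 4 positive and 7 negative. Without control clone 2, which leaves control clone 1 as the only control, it was 0.90, with all 11 positive. In the replication and G1/S set control clone 1 was the lowest clone for 22 genes and the highest for 14, beside 35.5% and 26.8% of all genes tested. The part of this difference in the comparison of the groups was not tested beyond leaving out each clone.

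**Figure D4:**
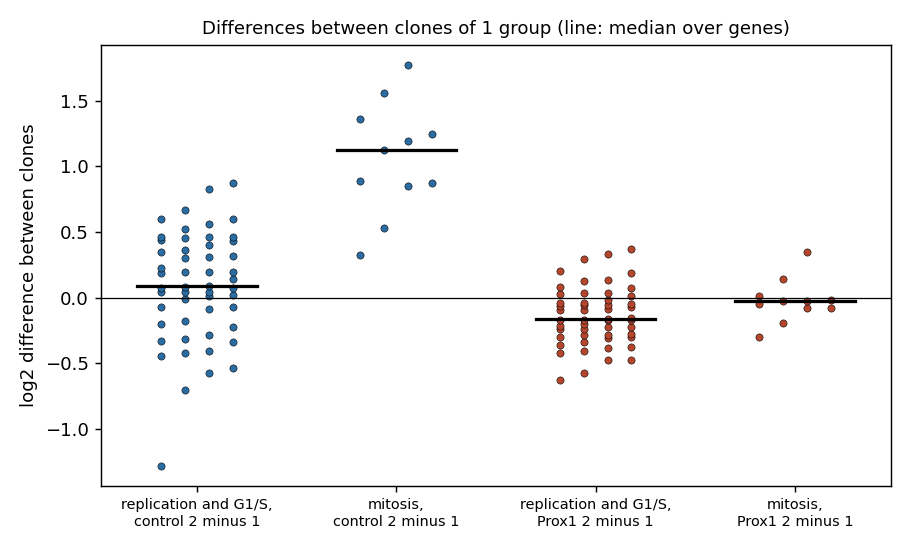
Log2 difference between the clones of each group, for the 52 replication and G1/S genes and for 11 mitosis genes, with 1 point a gene and a line at the median. Control clone 2 exceeded control clone 1 in all 11 mitosis genes (median 1.12), while the replication and G1/S genes spread around a median of 0.086.

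With single clones left out, a few genes passed the threshold. Without control clone 2 these were Rb1 (1.12, limma adjusted p = 0.0141), Ccne1 (-0.81, adjusted p = 0.0292) and Cdc6 (-0.78, adjusted p = 0.0353), in a setting in which 9.87% of all probe sets tested passed. Without control clone 1 it was Ccne2 (1.05, adjusted p = 0.0472), where 1.14% of probe sets passed. Over all alternatives run the adjusted p of Rb1 reached 0.566, that of Cdc6 0.699, that of Ccne1 0.927 and that of Ccne2 1. These fits rest on a single control clone, which is assumed to vary like the other clones. The sign of the change was kept on leaving out each clone in turn for 26 of the 52 genes, beside 58.3% of all genes tested.

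A wider list of 66 further replication and G1/S genes was read from the same fit. Of these, 53 had a probe set, 49 were tested and 0 passed in either direction (limma, adjusted over all probe sets). An unadjusted p under 0.05 was reached by 8 higher genes and 1 lower gene, beside 8.65% and 5.88% of all probe sets tested. The median log2 change over the 53 was 0.091. Cdkn1b, the cyclin-dependent kinase inhibitor p27, read 481 and 492 in the controls against 837 and 919 in the Prox1 clones (0.79 ± 0.19 SE, adjusted p = 0.154). Casp8ap2, which encodes the histone gene transcription cofactor FLASH, read 442 and 403 against 737 and 812 (0.81 ± 0.19, adjusted p = 0.154). For both, the clones of a group read close together and the groups did not overlap.

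Further genes of the wider list stood near these. Cyclin D1, encoded by Ccnd1, read 3105 and 2336 against 5114 and 4022 (0.74, adjusted p = 0.188). Cdkn2c, the inhibitor p18 of CDK4 and CDK6, read 1062 and 1357 against 2078 and 1647 (0.60, adjusted p = 0.249). Ccnd1, Cdkn1b and Cdkn2c were therefore higher in both Prox1 clones, none of them past the threshold. Cdkn1a, the inhibitor p21, read 12861 and 7514 against 9075 and 7552 (-0.25, adjusted p = 0.707), with overlap, and turned to 0.14 without control clone 1. The 1 lower gene was Gmnn, which encodes geminin, the inhibitor of CDT1. It read 1169 and 1122 against 875 and 636.5 (-0.59, adjusted p = 0.26) and, like Cdt1, was lowest in Prox1 clone 2. Gmnn, E2f8 and Cdkn1a were named after their values were seen. Leaving out control clone 2 brought 5 genes of the wider list past the threshold, namely Cdkn1b (adjusted p = 0.0288), Casp8ap2 (adjusted p = 0.0382), Cdkn2c (adjusted p = 0.0396), E2f8 (adjusted p = 0.0425) and, as a lower gene, Cdkn1a (-0.63, adjusted p = 0.0235). That is 5 of 49 tested, beside 9.87% of all probe sets. Leaving out control clone 1 brought Ccnd1 past it (adjusted p = 0.0472), beside 1.14% of all probe sets. Over all alternatives the adjusted p of Cdkn1b reached 0.557, that of Casp8ap2 0.55, that of Cdkn2c 0.983, that of E2f8 0.844, that of Cdkn1a 1 and that of Ccnd1 0.867.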

How the data were processed

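The authors deposited 1 intensity per probe set and array on a linear scale, and the submitters' processing notes name MAS5, with no version given. Each of the 4 columns had a mean of 500 after trimming 2% at either end, so the arrays had been scaled alike. Groups and clone numbers came from the sample titles. Of 22690 probe sets, 64 controls were left out. Values were taken as log2(intensity + 47), with 47 the 25th percentile of all values, which understates changes of dim probe sets. Probe sets above their array's median in at least 2 arrays were tested (11656) with limma 3.58.1 in R 4.3.3 (lmFit, eBayes with intensity trend, 2-sided, Benjamini-Hochberg, threshold 0.05). The same fit was tested on simulated data with independent arrays, which hold no clone or array effects. The number of arrays limits the precision.

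The genes and lists were chosen with earlier results of these data known. Values per clone are given for genes with an unadjusted p under 0.05, the 2 of each class with the largest change, the 3 with the highest signal, and the 4 of the wider list with the smallest p. Other genes were chosen after their values were seen. Alternatives changed the scaling, the pseudocount (none or 173), the filter, the variance model, a block on clone number, the clones included and the probe sets used.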

Additional observations from a re-analysis of the deposited data

How the results depend on the processing

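No replication or G1/S gene passed the threshold under any of the 11 alternatives that kept all 4 clones. Over all probe sets the 12 calls became 4 under quantile normalization, 0 without the filter (limma, with 2300 at an unadjusted p under 0.05), 7 with the robust variance model, 6 without suffixed probe sets and 110 with the clone number as a replicate block, and from 42 to 1150 on leaving out a clone. The block left 0 of the genes past the threshold. The differences between clones 2 and 1 correlated at -0.0091 between the groups over probe sets. The labels do not say whether clones of the same number shared a culture or array batch, and this was not tested. On leaving out a clone, the genes past the threshold numbered from 0 to 3, those higher without overlap from 9 to 24, those lower without overlap from 15 to 25, and the wider genes past the threshold from 0 to 5. With 1 clone left in a group, the groups separate more easily. The counts without overlap therefore cannot be compared with those from all 4 clones. Shares over all genes with a clone left out are not given here, so no gain in separation is read from these counts. The median difference between the control clones, 0.086, was -0.0075 under median centring and 0.19 without suffixed probe sets.

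Some signs turned. Quantile normalization gave 0.00033 for Mcm6, 0.0040 for Mcm7 and -0.011 for Mcm10, and median centring -0.039 for Rpa1, -0.0073 for Mcm2 and -0.021 for Mcm10. Averaging probe sets gave -0.020 for Rfc4, 0.040 for Mcm7 and -0.023 for Rbl1, and leaving out suffixed probe sets gave -0.17 for Rfc4, 0.014 for Dut and -0.013 for Mcm10. On leaving out a clone the log2 change ran from -0.099 to 0.50 for Gins1, -0.25 to 0.060 for Pcna, -0.17 to 0.43 for Rfc4, -0.064 to 0.077 for Rpa1, -0.12 to 0.30 for Rrm2, -0.18 to 0.49 for Uhrf1 and -0.32 to 0.017 for Slbp. It ran from -0.12 to 0.19 for Mcm2, -0.31 to 0.0063 for Mcm4, -0.23 to 0.18 for Mcm6, -0.23 to 0.13 for Mcm7, -0.081 to 0.38 for Prim2, -0.62 to 0.26 for Tk1, -0.23 to 1.05 for Ccne2, -0.029 to 0.27 for Orc6, -0.37 to 0.26 for Cdc45, -0.13 to 0.18 for Mcm10, -0.074 to 0.36 for Lig1, -0.39 to 0.17 for Chaf1b, -0.087 to 0.35 for Rbl1, -0.062 to 1.71 for Plk1 and -0.63 to 0.14 for Cdkn1a. The other genes whose changes were followed kept their sign throughout.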
